A study of Mus musculus with 6 samples.

Results

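The genes described here are 10 genes of the testicular Leydig cell: the cholesterol importers Scarb1 and Star, the steroid enzymes Cyp11a1, Hsd3b1, Hsd3b6, Cyp17a1 and Hsd17b3, the electron carrier Fdx1, the luteinizing hormone receptor Lhcgr and the peptide hormone Insl3. They were taken by symbol from 55711 entries of a table of testis RNA, and all 10 had exactly that symbol and were among the 19168 genes tested, which averaged 0.5 FPKM or more. FPKM gives fragments per kilobase of a gene, adjusted for library size. The 6 libraries were made from whole testis of mice of strain C57BL6. There were 3 control libraries, whose genotype is given as heterozygote, so that the controls are not wild type, and 3 libraries labelled knockout for Tmc7, a gene of the transmembrane channel-like (TMC) family. The labels give no age, describe no allele and do not say that the libraries within a group were from different animals, which leaves p-values as a measure of the spread between samples that may be technical. The comparison asked whether transcripts of hormone production differ between the genotypes.

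Leydig cells lie between the seminiferous tubules and make testosterone from cholesterol under the control of luteinizing hormone, which acts through its receptor and cyclic AMP. Cholesterol is taken up into the cell, moved into mitochondria, cut to pregnenolone there, and then converted to androgens by enzymes of the endoplasmic reticulum. Adult Leydig cells also secrete INSL3, a peptide of the relaxin family that is known for its role in the descent of the testis.

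Reads worked back from the FPKM numbered 17059486 to 18629233 in the control libraries and 17397662 to 19343479 in the libraries labelled knockout. Tmc7 itself was at 39.1, 37.7 and 37.2 FPKM in control libraries against 43.8, 41.9 and 35.1 FPKM in those labelled knockout. Its level therefore does not check the labels, and directions given here rest on the labels alone. All 10 genes were above 0 in every library, where 29316 to 30657 entries per library were above 0. This does not check which cells their RNA came from. Of 5 adrenal cortex markers, which share the steroid pathway, Cyp11b1 was at most 0.324 FPKM and Mc2r at most 0.133 FPKM in any library. Cyp21a1 lay between 1.05 and 4.88 FPKM and Akr1b7 between 0.801 and 1.36 FPKM, so adrenal-type markers were not all near 0. None of 6 epididymal markers reached the mean of 0.5 FPKM.

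No gene of hormone production passed the test between the groups, and neither did any of the 19168 genes tested. The value ranges of the groups overlapped for all 10, where groups without overlap were found for only 8.56% of all genes tested. The mean was lower in the libraries labelled knockout for 9 of the 10 genes and higher for Hsd3b1, with a median log2 difference of -0.19 against -0.01 over all genes tested. These lower means rest largely on library 3 labelled knockout, which had the lowest value of the 6 libraries for 8 of the 10 genes. Without it, 7 genes had a higher and 3 a lower mean log2 value in the libraries labelled knockout, and the median difference was 0.04. Leaving out a library with mostly the lowest values raises the means of its group by itself. The median was -0.26 without library 1 and -0.29 without library 2 labelled knockout. Without control libraries 1, 2 and 3 it was -0.20, -0.19 and -0.11. In whole testis RNA, fewer Leydig cells and less RNA per Leydig cell cannot be told apart.

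By limma on log2(FPKM + 1), 0 of the 10 genes were called at an adjusted p of 0.05, and the background over all genes tested was 0%. None of the 10 had an unadjusted p under 0.05 (0 of 10), against 3.87% of all genes, and limma-voom on the recovered reads called 0 of the 10. Groups that did not overlap were found for 8.56% of all genes and for none of the 10. The share of all genes with their lowest value in library 3 labelled knockout was 22.8%. Adjusted p-values of the 10 genes lay between 0.868 and 0.982. The median standard error of their log2 differences was 0.23, against 0.14 over all genes tested.

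**Figure D1:**
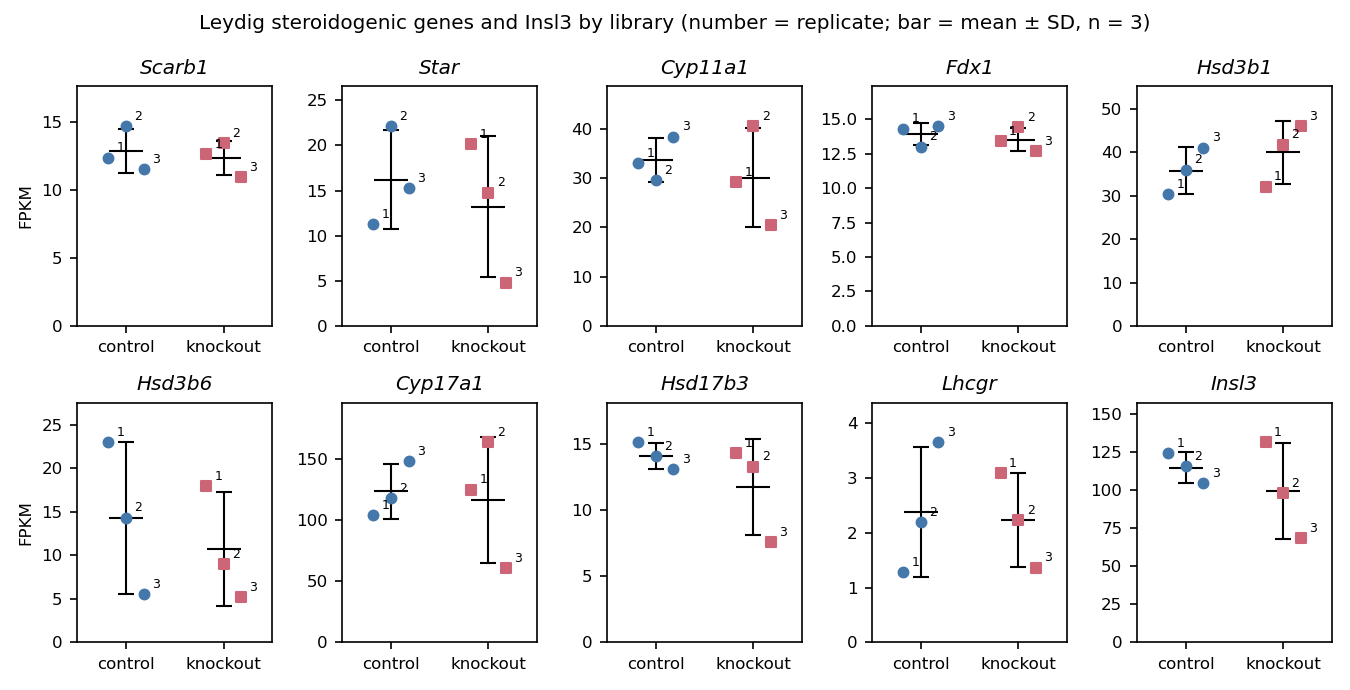
FPKM (vertical axes, each from 0) of the 10 Leydig genes in 3 control libraries (circles) and 3 libraries labelled knockout (squares), with the replicate number beside each point and the mean ± SD of each group as a bar. Library 3 labelled knockout is the lowest point for 8 genes, while for Hsd3b1 it is the highest and for Lhcgr the lowest is control library 1.

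Per gene length, the most abundant of the 10 were Cyp17a1 and Insl3, with means over the 6 libraries of 119.8 and 107 FPKM. Their ranges overlapped, and the lowest value of either, 60.8 FPKM, lay above every value of the other 8 genes. Hsd3b1 at 37.9 FPKM and Cyp11a1 at 31.9 FPKM came next, also with overlapping ranges. Star, Fdx1, Hsd17b3, Scarb1 and Hsd3b6 had means of 14.7, 13.7, 12.9, 12.6 and 12.5 FPKM, and no order among these 5 exceeded the spread between libraries. Lhcgr was the least abundant at 2.30 FPKM, and its highest value of 3.65 FPKM lay below the lowest value of the other 9 genes. It rested on 54 to 179 reads per library, the fewest of the 10 genes.

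The genes of cholesterol entry differed in how much they varied. Scarb1, which encodes the receptor that takes up cholesterol esters from high-density lipoprotein, lies on chromosome 5 from 125277087 to 125341094 (minus strand, ENSMUSG00000037936) in GRCm38, the build of all positions given here. It was at 12.4, 14.7 and 11.6 FPKM in control libraries against 12.6, 13.4 and 10.96 FPKM in those labelled knockout. Its log2 difference was -0.06 (standard error 0.12, limma adjusted p = 0.926). Star encodes the protein that moves cholesterol to the inner mitochondrial membrane, the acutely regulated step of steroid synthesis, and lies on chromosome 8 from 25806555 to 25815982 (plus strand, ENSMUSG00000031574). It was at 11.3, 22.2 and 15.3 FPKM in control libraries against 20.1, 14.8 and 4.79 FPKM in those labelled knockout. Star had the widest relative range of the 10 genes, with a highest value 4.63 times the lowest. Its log2 difference was -0.42 (standard error 0.47, 95% interval from -1.54 to 0.70, limma adjusted p = 0.873), and it was 0.13 without library 3 labelled knockout.

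The mitochondrial step is carried out by Cyp11a1, the side-chain cleavage enzyme that makes pregnenolone, on chromosome 9 from 58006411 to 58027023 (plus strand, ENSMUSG00000032323). Cyp11a1 was at 33.03, 29.6 and 38.4 FPKM in control libraries against 29.2, 40.6 and 20.5 FPKM in those labelled knockout. The highest and the lowest of the 6 values were thus both in libraries labelled knockout, and the log2 difference was -0.20 (standard error 0.23, limma adjusted p = 0.877), or 0.04 without library 3. Fdx1 encodes ferredoxin 1 (adrenodoxin), which hands electrons to CYP11A1, and lies on the same chromosome from 51943306 to 51963556 (minus strand, ENSMUSG00000032051). It was at 14.3, 13.01 and 14.5 FPKM in control libraries against 13.4, 14.4 and 12.7 FPKM in those labelled knockout. Fdx1 was the least variable of the 10 genes, with a coefficient of variation over the 6 libraries of 5.68%, where Star had 42.5% and Cyp11a1 22.7%. Its log2 difference was -0.04 with a 95% interval from -0.25 to 0.17 (limma adjusted p = 0.925).

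The next step, oxidation of pregnenolone to progesterone, is shared by Hsd3b1 and Hsd3b6, enzymes of a gene cluster on chromosome 3. Hsd3b1 lies from 98852194 to 98859794 (ENSMUSG00000027871) and Hsd3b6 from 98805504 to 98814443 (ENSMUSG00000027869), both on the minus strand and 37750 bases apart. Their values ran in nearly opposite orders across the libraries, so the 250 bases before each annotated start are shown, from RefSeq on GRCm38.p6, with matches to the GATA-type motif AGATAA on either strand in capitals. The Hsd3b1 window is chr3:98859795-98860044 and the Hsd3b6 window chr3:98814444-98814693, both read 5′ to 3′ on the minus strand.
Hsd3b1: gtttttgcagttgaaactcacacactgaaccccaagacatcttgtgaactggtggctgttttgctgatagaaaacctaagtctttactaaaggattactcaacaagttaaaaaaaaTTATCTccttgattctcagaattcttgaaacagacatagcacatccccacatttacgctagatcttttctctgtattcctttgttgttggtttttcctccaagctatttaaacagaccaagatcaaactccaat
Hsd3b6: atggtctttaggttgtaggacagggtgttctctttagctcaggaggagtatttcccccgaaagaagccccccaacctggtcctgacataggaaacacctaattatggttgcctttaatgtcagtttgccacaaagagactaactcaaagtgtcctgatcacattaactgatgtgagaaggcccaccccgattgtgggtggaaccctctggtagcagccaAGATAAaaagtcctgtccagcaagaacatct
Each window held 1 match, the one before Hsd3b1 in reverse complement, and 9.99% of 32851 windows of this length held at least 1. The motif CAAGGNC, of the type bound by NR5A1 (steroidogenic factor 1), had no match in either window. A match is a description of the letters and was not tied to any measurement here.

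Hsd3b1 was at 30.3, 36.04 and 41.1 FPKM in control libraries against 32.1, 41.7 and 46.1 FPKM in those labelled knockout. Hsd3b6 was at 22.97, 14.4 and 5.55 FPKM in control libraries against 17.96, 9.02 and 5.21 FPKM in those labelled knockout. Control library 1 had the lowest Hsd3b1 and the highest Hsd3b6, and library 3 labelled knockout had the highest Hsd3b1 and the lowest Hsd3b6. The groups overlapped for both genes. The log2 difference was 0.15 for Hsd3b1 (standard error 0.16, limma adjusted p = 0.872) and -0.34 for Hsd3b6 (standard error 0.55, limma adjusted p = 0.903). Both depended on single libraries: without library 3 labelled knockout they were 0.04 and 0.04, and without control library 1 they were 0.04 and 0.08.

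The sum of both genes, a quantity chosen after the values were seen, varied little. It was 53.3, 50.4 and 46.6 FPKM in control libraries against 50.02, 50.8 and 51.3 FPKM in those labelled knockout, a coefficient of variation of 4.30% over the 6 libraries where that of Hsd3b6 was 57.3%. Hsd3b6 made up 43.1%, 28.5% and 11.9% of the sum in controls, against 35.9%, 17.8% and 10.2% in those labelled knockout. The share spanned a similar range in both groups. In each group it fell as the replicate number rose, and at every number it was lower in the library labelled knockout. The log2 ratio of Hsd3b6 to Hsd3b1 differed by -0.53 between the group means (exact two-sided permutation test, p = 0.7). The smallest p that 3 libraries against 3 allow is 0.1. With the replicate number as a block, where fewer rearrangements are possible, the permutation p for this ratio was 0.25. Equal numbers were not treated as matched samples, and the cause of the shared order was not tested.

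**Figure D2:**
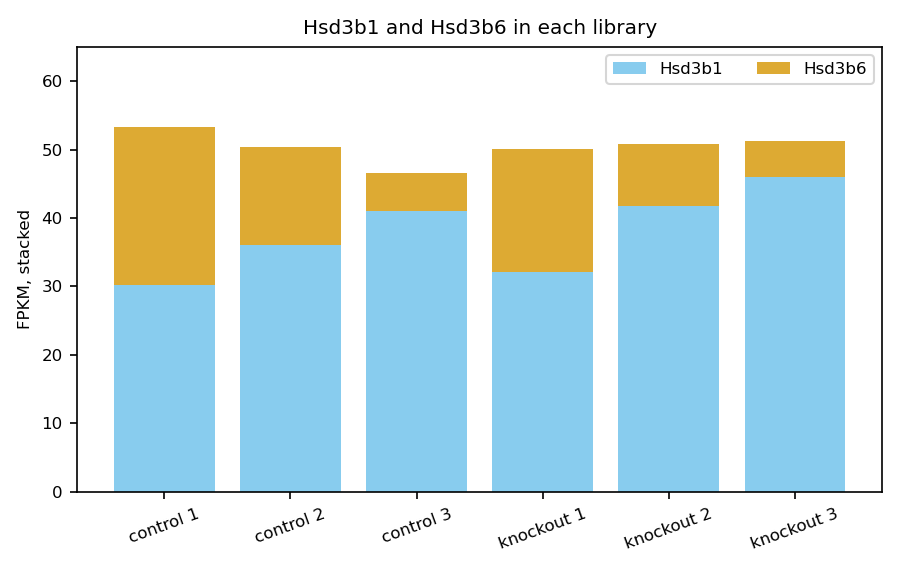
FPKM of Hsd3b1 and Hsd3b6 stacked for each of the 6 libraries (vertical axis from 0). The stack height stays between 46.6 and 53.3 FPKM while the upper segment, Hsd3b6, goes from 22.97 FPKM in control library 1 to 5.21 FPKM in library 3 labelled knockout.

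The cluster's genes share part of their sequence, which makes the split of some reads uncertain. The longest transcripts of Hsd3b1 and Hsd3b6 were 84.2% identical over 1539 aligned positions, and 5.99% of the distinct 31-base words of Hsd3b6 transcripts also occurred in Hsd3b1. Hsd3b6 shared 29.1% of its words with transcripts of any other gene, most with Hsd3b2 (23.3%) and Hsd3b3 (21.3%). Hsd3b2 was at most 0.0165 FPKM in any library and Hsd3b3 was listed at 0 in all 6. The sources used here do not say how reads matching more than 1 gene were counted. Late spermatid markers were also highest in control library 1 and low in library 3 labelled knockout: Tnp2, a transition protein of spermatids, was at 5381, 4600 and 3200 FPKM in control libraries against 4458, 2952 and 2472 FPKM in those labelled knockout. All 5 late spermatid markers had a lower mean in the libraries labelled knockout, with a summed level of 9618 to 16862 FPKM in controls and 7299.7 to 14107 FPKM in the libraries labelled knockout. Their part in the Hsd3b6 values was not tested.

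Cyp17a1, the microsomal enzyme that turns progestogens into androgen precursors, lies on chromosome 19 from 46667165 to 46672974 (minus strand, ENSMUSG00000003555). It was at 104, 118 and 148 FPKM in control libraries against 125, 163 and 60.8 FPKM in those labelled knockout. As with Cyp11a1, the libraries labelled knockout held both extremes. The log2 difference was -0.18 (standard error 0.34, limma adjusted p = 0.916), and it was 0.22 without library 3 labelled knockout. Hsd17b3 encodes the 17β-hydroxysteroid dehydrogenase that makes testosterone from androstenedione, and lies on chromosome 13 from 64058266 to 64089230 (minus strand, ENSMUSG00000033122). It was at 15.1, 14.1 and 13.1 FPKM in control libraries against 14.3, 13.3 and 7.56 FPKM in those labelled knockout. The other 5 libraries lay between 13.1 and 15.1 FPKM, and library 3 labelled knockout lay below them. The log2 difference of Hsd17b3 was -0.29 (standard error 0.22, 95% interval from -0.80 to 0.22, limma adjusted p = 0.868), and it was -0.03 without that library and -0.45 without library 1 labelled knockout.

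Lhcgr, which encodes the receptor for luteinizing hormone, lies on chromosome 17 from 88741549 to 88791976 (minus strand, ENSMUSG00000024107). It was at 1.29, 2.20 and 3.65 FPKM in control libraries against 3.09, 2.24 and 1.37 FPKM in those labelled knockout. Both the lowest and the highest value were in controls, and the 2 group means, 2.38 ± 1.19 and 2.23 ± 0.860 FPKM (SD, n = 3 each), differed by far less than their spread. The log2 difference was -0.04 (standard error 0.30, limma adjusted p = 0.982), and turned to 0.22 without control library 3 and to 0.17 without library 3 labelled knockout.

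Insl3 lies on chromosome 8 from 71689214 to 71690575 (plus strand, ENSMUSG00000079019), within the span of Jak3, a kinase gene on the same strand. Its upstream sequence is shown because it was the 1 window among the 8 found for these genes that held more than 1 match to CAAGGNC, which are in capitals. The 212 bases up to the first exon of the annotated gene, chr8:71689002-71689213, are from RefSeq on GRCm38.p6 and read 5′ to 3′ on the plus strand.
Insl3: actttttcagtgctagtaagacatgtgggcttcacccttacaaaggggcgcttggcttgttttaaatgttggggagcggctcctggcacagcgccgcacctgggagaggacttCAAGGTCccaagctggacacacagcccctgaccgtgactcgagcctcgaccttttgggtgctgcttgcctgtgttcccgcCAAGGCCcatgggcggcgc
The 2 matches were on the plus strand. Of all 32851 windows, 15% held at least 1 match on either strand and 1.58% held 2 or more. Windows were found for 7 of the 10 genes and not for Cyp17a1, Scarb1 and Star, and the Fdx1 window held 1 match. No window shown held matches to both CAAGGNC and AGATAA.

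Insl3 was at 125, 116 and 105 FPKM in control libraries against 131, 98.3 and 68.3 FPKM in those labelled knockout. Library 1 labelled knockout had the highest and libraries 2 and 3 the lowest values. Means were 115 ± 10.1 FPKM for controls and 99.3 ± 31.5 FPKM for the others (SD, n = 3 each). The log2 difference was -0.25 (standard error 0.22, limma adjusted p = 0.868), and it was -0.01 without library 3 labelled knockout and -0.48 without library 1. Of the 623 exonic bases of Insl3, 404 (64.8%) also lie in exons of Jak3, and 63.1% of its 31-base words occur in Jak3 transcripts, so the value depends on how shared reads were assigned. Jak3 was at 1.94, 2.57 and 2.96 FPKM in control libraries against 3.49, 3.29 and 2.54 FPKM in those labelled knockout.

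**Figure D3:**
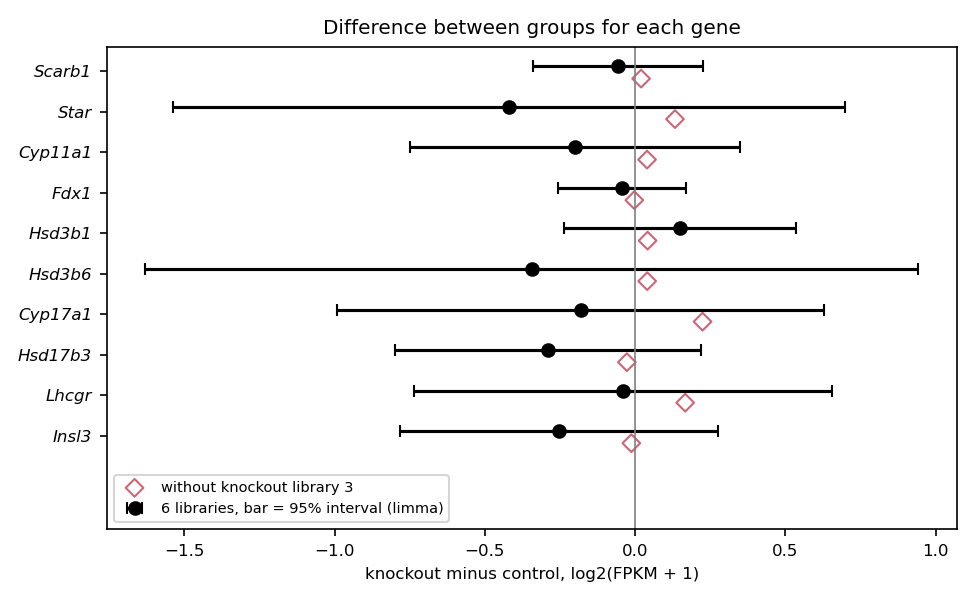
Difference of the group means (libraries labelled knockout minus control) on the log2(FPKM + 1) scale for each of the 10 genes, with the 95% interval from limma as a bar; open diamonds give the difference without library 3 labelled knockout. Every interval contains 0, the points run from -0.42 for Star to 0.15 for Hsd3b1, and the diamonds from -0.03 for Hsd17b3 to 0.22 for Cyp17a1.

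Library 3 labelled knockout stood apart to a different degree for each gene. As a percentage of the mean of the other 5 libraries, its value was 28.6% for Star, 37.3% for Hsd3b6, 46.2% for Cyp17a1, 54.2% for Hsd17b3 and 54.8% for Lhcgr. It was 59.5% for Insl3 and 60.1% for Cyp11a1. Scarb1 at 84.7% and Fdx1 at 91.2% were nearer to the other libraries, and Hsd3b1 stood at 127%. Its value lay below the range of the other 5 libraries for 8 of the 10 genes, all except Hsd3b1 and Lhcgr. Averaged over the 10 genes after centring each on its mean of the 6 libraries, the log2 level was 0.05, 0.14 and 0.07 for the controls against 0.19, 0.11 and -0.54 for those labelled knockout. Library 1 labelled knockout thus had the highest average level and library 3 the lowest.

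Other measures of library 3 labelled knockout are given beside this, and their part in its low values was not tested. Its depth of 18140921 reads and its mitochondrial share of 0.89% lay within the range of the other libraries. Its FPKM implied a library size of 19497384, the largest of all, against 16450310 to 19214472. Its 30657 entries above 0 were also the most of all, against 29316 to 30464. Sertoli markers were at their highest list level there, at 0.29, against -0.20 to 0.17 in the other 5 libraries, with 9 of 10 markers higher in the mean of the libraries labelled knockout. Macrophage markers were also highest there, at 0.29 against -0.17 to 0.20. Late spermatid markers were lowest there, at -0.62 against -0.52 to 0.62 elsewhere. Haemoglobin Hba-a1 was at 29.4 FPKM there and at 27.3 FPKM in control library 3, against 0.213 to 5.09 FPKM in the other 4. Nr5a1, the gene of steroidogenic factor 1, which is present in both Leydig and Sertoli cells and was chosen after its values were seen, had its highest value there: 13.7 FPKM, against 9.13, 11.2 and 11.4 FPKM in controls. Libraries 1 and 2 labelled knockout were at 10.4 and 12.7 FPKM. The marker shifts were not particular to library 3 labelled knockout. In library 2 labelled knockout the Sertoli, macrophage and late spermatid levels were 0.17, 0.20 and -0.52, while the average level of the 10 genes was 0.11. In library 1 labelled knockout the same marker levels were -0.15, -0.17 and 0.38.

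**Figure D4:**
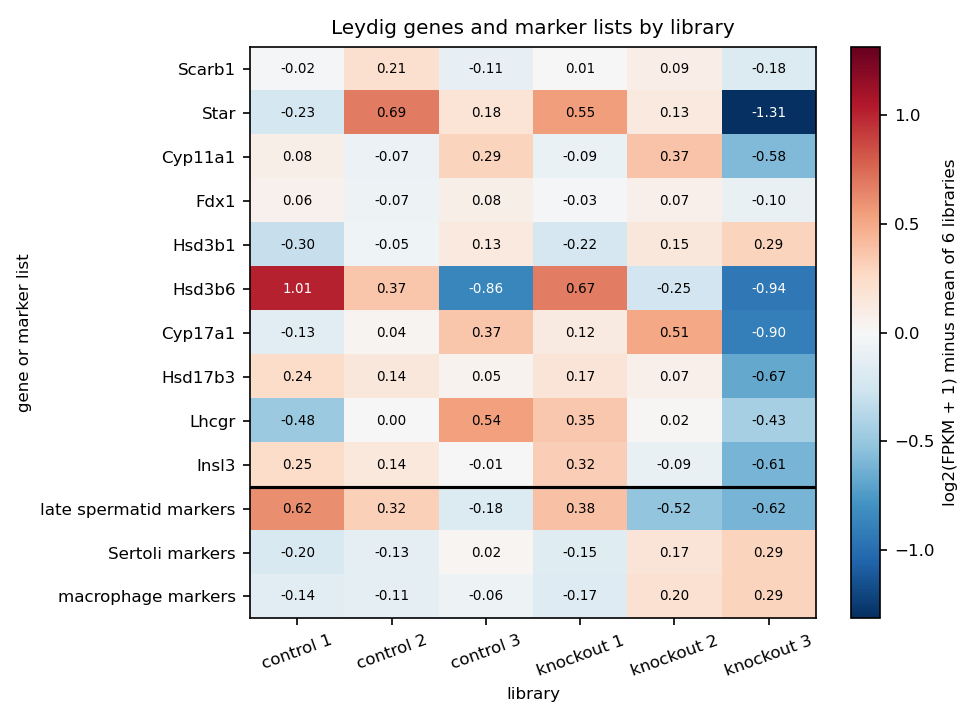
Level of each gene in each library as log2(FPKM + 1) minus its mean over the 6 libraries (colour and printed value), with the mean level of 3 marker lists under the line. The last column, library 3 labelled knockout, is negative for 9 of the 10 genes and positive for Hsd3b1. Sertoli and macrophage markers stand at 0.29 there, and at 0.17 and 0.20 in library 2 labelled knockout.

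Ratios between steps of the pathway within a library did not separate the groups either. Of 6 ratios computed, that of Cyp17a1 to Cyp11a1 varied least: Cyp17a1 was between 2.96 and 4.27 times Cyp11a1 in all 6 libraries. The log2 ratio had means of 1.87 ± 0.181 in controls and 1.89 ± 0.283 in those labelled knockout (SD, n = 3 each). Cyp11a1 was 1.33 to 4.29 times Star, with the highest ratio in library 3 labelled knockout. Insl3 was 0.602 to 1.20 times Cyp17a1, with the lowest ratio in library 2 labelled knockout and the highest in control library 1. The 6 differences of log2 ratios lay between -0.53 and 0.26, with exact two-sided permutation p-values of 0.6 to 0.8 (0.8 after Benjamini-Hochberg adjustment over the 6).

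Genes of the steps around the 10 also gave no call. Of 20 cholesterol supply genes, 11 were higher and 9 lower with a median log2 difference of 0.04, and the value of library 3 labelled knockout was the lowest in 4. Lipe, the hormone-sensitive lipase that frees stored cholesterol esters, was at 67.4, 63.9 and 48.1 FPKM in control libraries against 63.3, 59.8 and 38.1 FPKM in those labelled knockout. Osbp, a sterol carrier, had means of 29.9 ± 2.22 and 28.4 ± 1.62 FPKM, and Sqle, of cholesterol synthesis, 21.97 ± 0.911 and 23.4 ± 1.62 FPKM (SD, n = 3 each, controls first). Tspo, an outer mitochondrial membrane protein, was at 5.96, 4.42 and 4.46 FPKM in control libraries against 5.43, 5.27 and 7.71 FPKM in those labelled knockout, and Cd36, a fatty acid and lipoprotein receptor, had means of 4.92 ± 2.08 and 2.98 ± 1.26 FPKM. Of the redox partners of the steroid enzymes, 6 of 6 tested had a higher mean in the libraries labelled knockout, with a median of 0.10 and 0 called. Fdxr, the reductase that supplies Fdx1, was at 10.7, 10.4 and 11.8 FPKM in control libraries against 9.61, 13.05 and 13.4 FPKM in those labelled knockout. Cyb5b and Cyb5r3, of the cytochrome b5 system, had log2 differences of 0.07 and 0.15.

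Among other enzymes of steroid metabolism 12 of 25 were tested, 7 higher and 5 lower, with a median log2 difference of 0.00. Akr1cl, an aldo-keto reductase family member, was at 22.6, 21.5 and 20.3 FPKM in control libraries against 19.3, 19.98 and 18.1 FPKM in those labelled knockout, without overlap of the groups. Its log2 difference was -0.16 (standard error 0.09, limma adjusted p = 0.868). Hsd17b4, a peroxisomal enzyme, also had groups that did not overlap, at 15.5 ± 0.286 and 16.2 ± 0.165 FPKM (SD, n = 3 each). Such groups were found for these 2 of the 12 tested, against 8.56% of all genes tested. Sult1e1, the oestrogen sulfotransferase of Leydig cells, was at 12.5, 19.9 and 12.7 FPKM in control libraries against 15.7, 12.7 and 6.40 FPKM in those labelled knockout. Sult1e1 had the library profile nearest to that of Star among genes averaging 2 FPKM or more, with a root-mean-square distance of 0.24 over the 6 libraries. Hsd17b11 had means of 3.06 ± 0.489 and 3.75 ± 0.614 FPKM.

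Of 28 tested genes of gonadotropin signalling and steroidogenic regulation, 20 were higher and 8 lower with a median of 0.07. Groups did not overlap for 4 of the 28, against 8.56% of all genes tested. Akap1, a mitochondrial anchor of protein kinase A, was at 175, 177 and 135 FPKM in control libraries against 176, 162 and 107 FPKM in those labelled knockout. Pde8a, a cyclic AMP phosphodiesterase, and Klf4, a transcription factor, had log2 differences of 0.02 and 0.12; both are also expressed outside Leydig cells. Prkar2b, a regulatory subunit of protein kinase A, was at 3.96, 3.95 and 4.03 FPKM in control libraries against 3.49, 2.68 and 3.41 FPKM in those labelled knockout, without overlap of the groups (log2 difference -0.25, limma adjusted p = 0.868).

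Of 11 tested other Leydig markers, 6 were higher and 5 lower with a median of 0.05, and library 3 labelled knockout had the lowest value in 5 of them, against 22.8% of all genes. Ptgds, a prostaglandin D synthase, was at 36.8, 45.6 and 38.8 FPKM in control libraries against 74.4, 67.1 and 17.7 FPKM in those labelled knockout, so that the latter held both extremes. Ces1d, a carboxylesterase, was at 8.01, 8.23 and 8.57 FPKM in control libraries against 8.12, 6.60 and 3.92 FPKM in those labelled knockout. Aldh1a1 of retinoic acid synthesis had means of 55.4 ± 6.18 and 52.1 ± 5.82 FPKM, and Gramd1b, a sterol transfer protein, 30.01 ± 0.517 and 31.2 ± 3.29 FPKM. Sfrp1, a secreted Wnt inhibitor, was at 0.839 ± 0.127 and 1.07 ± 0.0924 FPKM (SD, n = 3 each) without overlap of the groups. This held for 2 of the 11, against 8.56% of all genes tested.

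Of 8 relaxin family peptides and receptors only 3 were abundant enough to test. Insl6, a relative of Insl3 that is expressed in germ cells, was at 133, 109 and 117 FPKM in control libraries against 120.2, 103 and 122 FPKM in those labelled knockout. Its library 3 labelled knockout value was the second highest of the 6, where that of Insl3 was the lowest. Rxfp2, the receptor of INSL3, was at 2.28, 1.74 and 1.95 FPKM in control libraries against 2.29, 1.94 and 1.45 FPKM in those labelled knockout, and Insl5 had means of 0.852 ± 0.371 and 0.879 ± 0.466 FPKM (SD, n = 3 each).

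Genes of the androgen receptor and its response had higher means in the libraries labelled knockout for 7 of 8 tested, with a median of 0.26 and 0 called. Eppin, an androgen-regulated serine protease inhibitor, was at 21.6, 21.2 and 24.1 FPKM in control libraries against 28.2, 26.3 and 26.04 FPKM in those labelled knockout. The groups did not overlap, and the log2 difference was 0.26 (standard error 0.09, limma adjusted p = 0.868). Groups without overlap were found for 2 of the 8, against 8.56% of all genes tested. Rhox5, an androgen-dependent homeobox gene of Sertoli cells, was at 8.71, 6.16 and 7.66 FPKM in control libraries against 8.84, 7.88 and 10.7 FPKM in those labelled knockout, and Tubb3 had means of 18.6 ± 2.30 and 23.9 ± 6.95 FPKM. Slc22a23 was the 1 gene with a lower mean, at 0.668 ± 0.0466 and 0.483 ± 0.0387 FPKM (SD, n = 3 each). Many of these are Sertoli genes, and the 10 Sertoli markers had a median log2 difference of 0.24 and a summed level of 547 to 579 FPKM in controls and 543 to 689 FPKM in the libraries labelled knockout. The part of the Sertoli level in the androgen response values was not tested.

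Among the other markers, 8 of 8 macrophage genes had a higher mean in the libraries labelled knockout, with a median log2 difference of 0.23, and 4 of 5 peritubular myoid genes, with a median of 0.30. Lyz2 of macrophages had means of 15.6 ± 1.26 and 18.4 ± 3.01 FPKM, and Acta2 of myoid cells 30.4 ± 2.41 and 40.4 ± 8.86 FPKM (SD, n = 3 each). Actg2, the most abundant myoid marker, was the 1 of the 5 with a lower mean, at 130.2 ± 15.8 and 108 ± 33.03 FPKM (SD, n = 3 each), with its lowest value in library 3 labelled knockout. The summed myoid level was 157 to 186 FPKM in controls and 134 to 184 FPKM in the libraries labelled knockout. The 4 tested haemoglobin and red cell genes all had a lower mean. Endothelial markers were higher in 4 of 5 tested and spermatocyte markers in 1 of 4, and of 2 tested fat markers 1 was higher. No marker gene passed the test.

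Genes outside the 10 with the most similar pattern were found by the root-mean-square distance from the average centred profile of the 10 over the 6 libraries. The 5 nearest were Hoga1, Hemgn, Ston1, Dcaf1 and Trim36, at distances of 0.046 to 0.063. Hoga1, a mitochondrial aldolase of hydroxyproline breakdown, was at 13.1, 14.3 and 13.3 FPKM in control libraries against 14.5, 12.6 and 8.08 FPKM in those labelled knockout. Trim36, a ubiquitin ligase gene, was at 160.3, 165 and 143 FPKM in control libraries against 158, 155 and 100.3 FPKM in those labelled knockout. These 5 were picked for the smallest distance among all named genes averaging 2 FPKM or more, so their closeness follows from the choice. The 10 genes, taken by name, lay from 0.096 for Hsd17b3 and 0.13 for Insl3 to 0.43 for Star and 0.63 for Hsd3b6 from their average. The 2 sets of distances therefore do not compare how alike the genes are. For single genes the nearest were chosen after the values were seen: Car2 was nearest to Hsd3b6 at a distance of 0.28, and Lamb1 to Hsd3b1 at 0.030.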

How the data were processed

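RNA was measured by sequencing in 6 whole-testis libraries, extracted with Trizol and prepared with a SMARTER mRNA-Seq kit, per the labels' protocols. The authors deposited FPKM per gene in 1 table with gene length and position. GRCm38 and mm10 are the builds in the submitters' processing notes. Not given in the sources used here are the aligner, counter, strand setting and treatment of reads that match several genes. In each library 1 step divided FPKM times gene length into whole reads for 100% of values above 0 (tolerance 0.001). Median-of-ratios factors of the FPKM were the same in all libraries.

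Groups came from sample titles. Genes averaging 0.5 FPKM or more were tested with limma 3.58.1 in R 4.3.3 (lmFit, eBayes with trend, group as the only term). Values were log2(FPKM + 1), which understates changes of low genes, with Benjamini-Hochberg adjustment over all 19168 genes at 0.05. The procedure was run on simulated counts with the same dispersion for all genes. That run does not show how it performs for genes as variable as Star or Hsd3b6. Ratios used an exact permutation test (SciPy 1.17.1). Transcripts were aligned with Biopython 1.88, and 31-base words compared on GENCODE M21. The 10 genes and the other gene lists (18 with the 10, and 183 of 184 entries matched) were chosen with earlier results of these data known. Named genes were the 10, the 3 of highest FPKM and the 1 of smallest p in each direction per pathway list, the 2 of highest FPKM per marker list, and the 5 of nearest profile; not all are printed. Tmc7, Nr5a1, Jak3, Hsd3b2, Hsd3b3, Cyp11b1, Mc2r, Car2 and Lamb1 stood outside this rule. Alternatives were other pseudocounts, filters, normalizations and weights, a replicate block, limma-voom on reads and each library left out.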

Additional observations from a re-analysis of the deposited data

How the results depend on the processing

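Under every alternative run, 0 of the 10 genes were called, with a smallest limma adjusted p of 0.237. Of 150 alternative values of their log2 differences, 141 kept their direction and 9 reversed, all 9 when 1 library was left out; the cause was not tested. The leave-one-out values ran from -0.13 to 0.036 for Scarb1, -0.80 to 0.13 for Star, -0.44 to 0.040 for Cyp11a1, -0.86 to 0.076 for Hsd3b6, -0.48 to 0.22 for Cyp17a1 and -0.29 to 0.22 for Lhcgr. Without library 3 labelled knockout they were 0.020, 0.13, 0.040, 0.040, 0.22 and 0.17. Scarb1 was 0.036 without control library 2, Hsd3b6 0.076 without control library 1 and Lhcgr 0.22 without control library 3. Fdx1, Hsd3b1, Hsd17b3 and Insl3 kept their direction, with leave-one-out values from -0.088 to -0.0026, 0.038 to 0.30, -0.45 to -0.027 and -0.48 to -0.012. For the last 3 the value farthest from 0 came without library 1 labelled knockout, with limma adjusted p of 0.325, 0.330 and 0.237. The median over the 10 genes ran from -0.29 to 0.04, that of the redox partners from 0.026 to 0.26 and that of the other Leydig markers from -0.097 to 0.037. Each ratio reversed when 1 library was left out: Cyp11a1 over Star ran from -0.10 to 0.68, Hsd3b6 over Hsd3b1 from -1.20 to 0.045, Cyp17a1 over Cyp11a1 from -0.080 to 0.19, Hsd17b3 over Cyp17a1 from -0.32 to 0.051, Insl3 over Cyp17a1 from -0.28 to 0.21 and Fdx1 over Cyp11a1 from -0.043 to 0.36. Over all genes, limma-voom on the recovered reads called 1 gene lower, where limma on FPKM called 0, with 741 genes at an unadjusted p under 0.05.

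With the replicate number as a block, 0 of the 10 genes were called and the median stayed at -0.19. Over all genes 0 were called, with 1411 at an unadjusted p under 0.05. Same-numbered libraries correlated in their deviations at r = 0.286, 0.041 and 0.198, and library 2 labelled knockout correlated more with control library 3 (0.17) than with control library 2, so the numbers were not taken to pair the samples. Depth limits Lhcgr most, with 54 reads in its lowest library. With 3 libraries a group, differences as large as the intervals of Star and Hsd3b6 allow were not detectable.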
